A study of Arabidopsis thaliana with 6 samples.

Results

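Of the 22810 probe sets on the Affymetrix ATH1 array, 9 were followed here, those for flavonoid and anthocyanin genes: the enzymes CHS, TT5, F3H, F3'H, DFR, LDOX, AT4G14090 and UGT78D1 and the transcription factor PAP1. They were chosen by name and place in the pathway. DFR, AT4G14090 and UGT78D1 were named in the probe table, and the other 6 names were those given with the member list, which pairs each with a probe set. Chosen with earlier results of these data known, the 9 are a description of the pathway rather than a random sample of it. All 9 passed the filter on low signal, and they were tested in a fit across 13848 probe sets.

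RNA came from whole rosettes of Arabidopsis thaliana in 2 genotypes, with 3 arrays each. The wild type was Col-0. The double mutant combined the insertion lines salk_053427 and salk_093072 and is labelled as a mutant of APK1 and APK2, which encode APS kinases, the enzymes that make the sulfate donor PAPS. Plants of both genotypes were grown under one regime of 10 h of light and 14 h of dark at 22 °C and 60% humidity, cut at 35 days before bolting, 4 h after the lights came on, and pooled 10 rosettes to a sample. The mutant is 1 combination of insertion lines, and APK1 and APK2 themselves were not analysed here, so the labels were not checked against them.

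Flavonoids are made from a phenylpropanoid precursor. Chalcone synthase and chalcone isomerase build the flavanone skeleton, and hydroxylases turn it into dihydroflavonols, from which the pathway branches. These early steps serve flavonols and anthocyanins alike, and in Arabidopsis they are driven mainly by a group of flavonol MYB factors. The late steps, from dihydroflavonol reductase onwards, lead to anthocyanins, the red pigments of stressed leaves, and depend on complexes of a MYB such as PAP1 with bHLH and WD40 partners. Flavonols leave the pathway before the late steps and are stored as glycosides, with sugars added by glycosyltransferases such as UGT78D1.

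Transcript levels in the double mutant were higher for the first enzymes of the pathway, CHS and TT5, and for the late enzymes DFR, LDOX and AT4G14090, with no called change of the hydroxylases F3H and F3'H. With 3 arrays per genotype, DFR was 2.41-fold higher (95% interval 1.86 to 3.13), LDOX 1.84-fold (1.52 to 2.22) and AT4G14090 2.62-fold (1.48 to 4.63), the last a dim gene whose call depended on single arrays. Of the early enzymes, TT5 was 1.55-fold higher (1.29 to 1.86) and CHS 1.38-fold (1.19 to 1.60). The call of CHS was lost without wild-type replicate 3 (limma adjusted p = 0.0502). It was also lost when limma's variance prior had no trend on signal (0.0796), while TT5 was called in every fit. F3H and F3'H were not called in either direction, and neither was PAP1. In whole rosettes, a rise in some cells and a rise in all of them cannot be told apart. In all, 6 of 9 members were called higher and 0 lower at an adjusted p of 0.05 (limma, Benjamini-Hochberg adjustment over all tested probe sets), where 11.3% of all tested probe sets were called, 5.79% higher and 5.55% lower. At an unadjusted p under 0.05 the members' counts were the same, 6 and 0, against 10.8% and 12.9% of all tested probe sets. The signals of the genotypes did not overlap for the same 6 members, and in each the mutant was higher, while over all tested probe sets 28.7% did not overlap, 13.0% with the mutant higher. These counts include AT4G14090, which needed its mutant arrays to pass the filter on low signal. Without that filter it was not called (limma adjusted p = 0.0704).

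The arrays were alike in overall brightness, with median signals between 32.5 and 34.5. Across tested log2 signals, r was 0.974 to 0.986 for array pairs of 1 genotype and 0.950 to 0.969 for pairs that crossed genotypes. Of 8 leaf markers, 2 had a named probe set: RCA, which activates Rubisco, had signals of 5464 to 7268 over the 6 arrays, and the Calvin cycle enzyme SBPASE 2193 to 3213. SBPASE was called lower in the mutant (log2 change −0.33, adjusted p = 0.0245) and RCA was not called (log2 change 0.02, adjusted p = 0.950), and their part in the results below was not tested. The root markers EXPA7 and EXPA18 and the seed coat gene BAN lay under the 40th percentile of signal on every array. The flower markers had no named probe set.

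**Figure D1:**
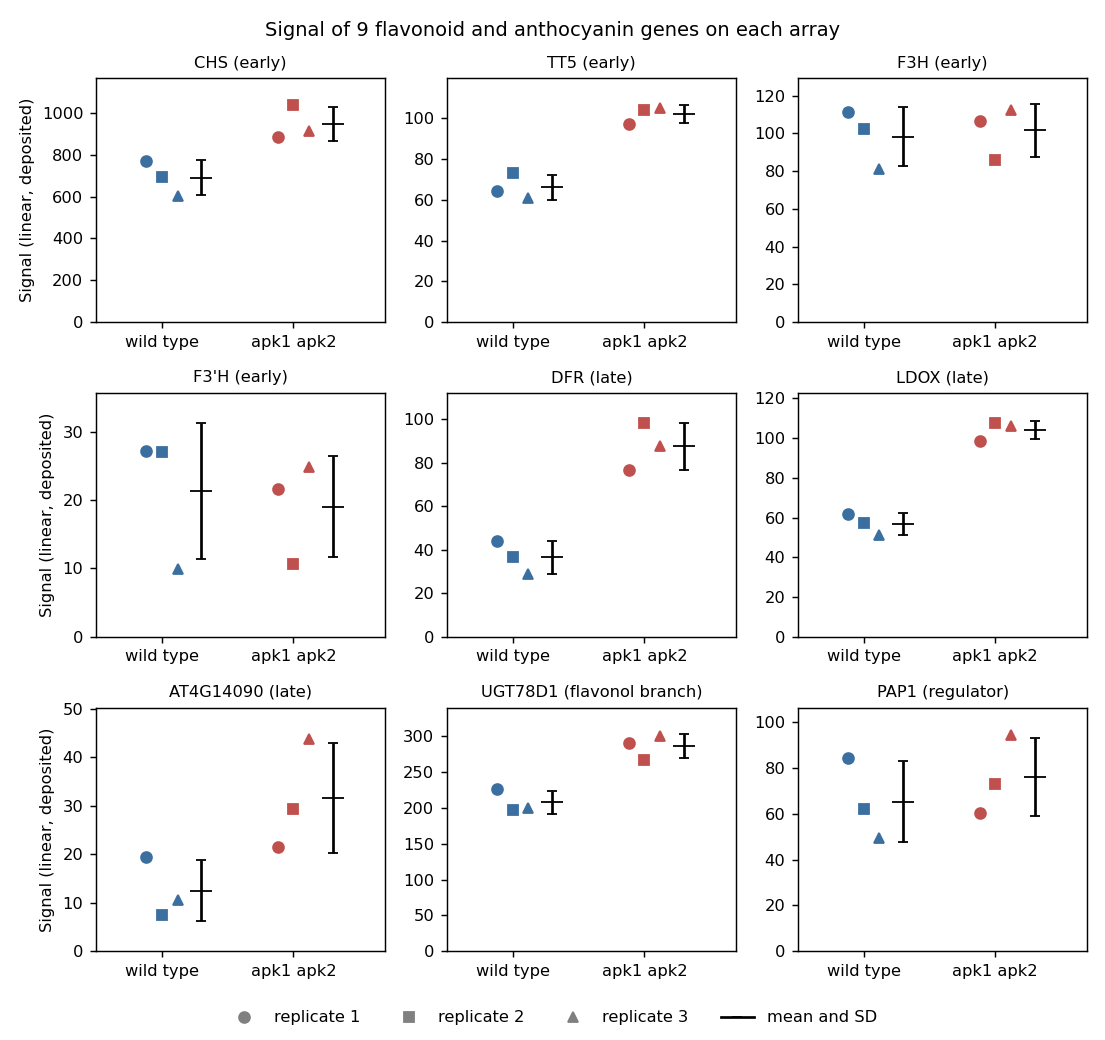
Deposited signal (linear scale from 0) of each of the 9 genes on every array, with 1 panel per gene, blue points for the wild type, red points for the double mutant, and the mean with its SD beside them. The groups are separate for CHS, TT5, DFR, LDOX, AT4G14090 and UGT78D1 and overlap for F3H, F3'H and PAP1.

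CHS, chalcone synthase, commits phenylpropanoid precursors to flavonoids. Its probe set 250207_at (gene AT5G13930) had signals of 770.5, 693.1 and 604.2 in wild-type replicates 1, 2 and 3 and of 886.1, 1037 and 913.7 in mutant replicates 1, 2 and 3. Every mutant array lay above every wild-type array, with the narrowest gap between mutant replicate 1 and wild-type replicate 1. The means were 689 ± 83.2 (SD, n = 3) and 946 ± 80.3, and the log2 change was 0.46 ± 0.10 (SE), with an adjusted p of 0.00866 in limma. The call was lost in 2 alternatives. Without wild-type replicate 3, the lowest wild-type array for CHS, the log2 change was 0.37 with an adjusted p of 0.0502, and when limma's variance prior had no trend on signal the adjusted p was 0.0796.

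TT5 (AT3G55120, probe set 251827_at), chalcone isomerase, closes the ring of the chalcone. Its signals were 64.4, 73.0 and 60.7 in wild-type replicates 1, 2 and 3 and 97.0, 103.9 and 105.1 in the mutant replicates. The mutant arrays differed little among themselves and all stood well above the highest wild-type array, replicate 2. From 66.1 ± 6.30 to 102.0 ± 4.36 (SD, n = 3), the log2 change was 0.63 ± 0.12 (SE, limma adjusted p = 0.00438). It was called under all 14 alternatives that were run, with log2 changes between 0.53 and 0.70.

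F3H (AT3G51240, probe set 252123_at), the flavanone hydroxylase that makes dihydroflavonols, had signals of 111.1, 102.3 and 80.8 in the wild type and of 106.4, 85.8 and 112.6 in the mutant. The genotypes overlapped over nearly their whole range. The log2 change was 0.05, and its 95% interval of −0.26 to 0.37 corresponds to folds from 0.834 to 1.29 (adjusted p = 0.872). A rise as large as the fitted fold of CHS or TT5 lies outside this interval.

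F3'H (probe set 250558_at), the hydroxylase that adds the B-ring hydroxyl that separates quercetin and cyanidin from their simpler relatives, was the dimmest early member. Its signals were 27.2, 27.1 and 9.86 in the wild type and 21.6, 10.7 and 24.8 in the mutant, with 2 of 3 arrays of each genotype at or above their array's 40th percentile, which lay between 16.9 and 19.4. In each genotype 1 array was low, replicate 3 in the wild type and replicate 2 in the mutant. The log2 change of −0.11 had a 95% interval of −1.04 to 0.81, folds from 0.485 to 1.76 (adjusted p = 0.911). A change of the size seen for CHS or TT5 was therefore not detectable for F3'H with these arrays.

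DFR (AT5G42800, probe set 249215_at), the reductase that opens the anthocyanin branch, had signals of 44.1, 36.6 and 29.0 in the wild type and 76.4, 98.3 and 87.6 in the mutant. The lowest mutant array was above the highest wild-type array by a wide margin. The means were 36.6 ± 7.54 and 87.4 ± 10.9 (SD, n = 3), and the log2 change was 1.27 ± 0.17 (SE, limma adjusted p = 3.37e-04). It ranked 171 from the top among the 13848 log2 changes, and the call held under all 14 alternatives, with adjusted p-values up to 0.00768.

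LDOX (AT4G22880), the dioxygenase that forms the coloured anthocyanidin, had signals of 61.7, 57.3 and 51.1 in the wild type and 98.7, 107.4 and 105.9 in the mutant. Both genotypes were tight, and no array of one came near the other. From 56.7 ± 5.36 to 104.0 ± 4.66 (SD, n = 3), the log2 change was 0.88 ± 0.13 (SE, limma adjusted p = 4.71e-04), and the call held under all 14 alternatives, with log2 changes from 0.72 to 0.94. The suffix of its probe set, 254283_s_at, is given to those that can bind several related transcripts, so the signal may not come from LDOX alone.

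AT4G14090 (probe set 245624_at) encodes a glucosyltransferase that adds a sugar to anthocyanins. It was dim, with signals of 19.5, 7.50 and 10.5 in the wild type and 21.4, 29.4 and 43.8 in the mutant. In the wild type replicate 1 alone reached its 40th percentile, while all 3 mutant arrays did, so the gene passed the filter through the mutant arrays. Wild-type replicate 1 and mutant replicate 1 were close, and mutant replicate 3 was the highest. The log2 change was 1.39 ± 0.38 (SE, limma adjusted p = 0.0318), with the largest SE of the called members, and it was 0.73 with an offset of 16 added before log2 (adjusted p = 0.0254). The call ended without wild-type replicate 2 (log2 change 1.08, adjusted p = 0.108), wild-type replicate 3 (1.32, 0.0958), mutant replicate 2 (1.41, 0.0719) or mutant replicate 3 (1.12, 0.176). It also ended without the filter on low signal (adjusted p = 0.0704) and with no trend in the variance prior (0.0819).

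UGT78D1 (AT1G30530, probe set 261804_at) belongs to the flavonol branch, where it attaches rhamnose to flavonols. Its signals were 225.8, 196.8 and 199.8 in the wild type and 290.5, 266.7 and 300.1 in the mutant. The groups were separate, and the spread within each was small. It was 1.38-fold higher (95% interval 1.20 to 1.59), from 207 ± 15.9 to 286 ± 17.2 (SD, n = 3), with a log2 change of 0.46 ± 0.09 (SE, limma adjusted p = 0.00617), and the call held under all 14 alternatives. Its fold was close to that of CHS and below those of the late members DFR, LDOX and AT4G14090, though the differences between single members were not tested.

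PAP1 (probe set 245628_at), the MYB factor whose overproduction turns Arabidopsis purple, had signals of 84.3, 62.1 and 49.5 in wild-type replicates 1, 2 and 3 and of 60.4, 73.2 and 94.3 in mutant replicates 1, 2 and 3. The genotypes overlapped, and wild-type replicate 1 was higher than mutant replicates 1 and 2, whereas DFR and LDOX were lower on wild-type replicate 1 than on any mutant array. Within the wild type all 3 genes had the same order of arrays, as did CHS, F3H and F3'H. Within the mutant all 3 were lowest on replicate 1, as were CHS, TT5 and AT4G14090. PAP1 was highest on mutant replicate 3, whereas DFR and LDOX were highest on mutant replicate 2. Being lowest on wild-type replicate 3 and on mutant replicate 1 was found in 9.91% of tested probe sets. The log2 change of PAP1 was 0.23 (95% interval −0.21 to 0.66, adjusted p = 0.552), an interval that reaches a 1.58-fold rise, and leaving out single arrays moved it between 0.05 and 0.43 without a call.

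**Figure D2:**
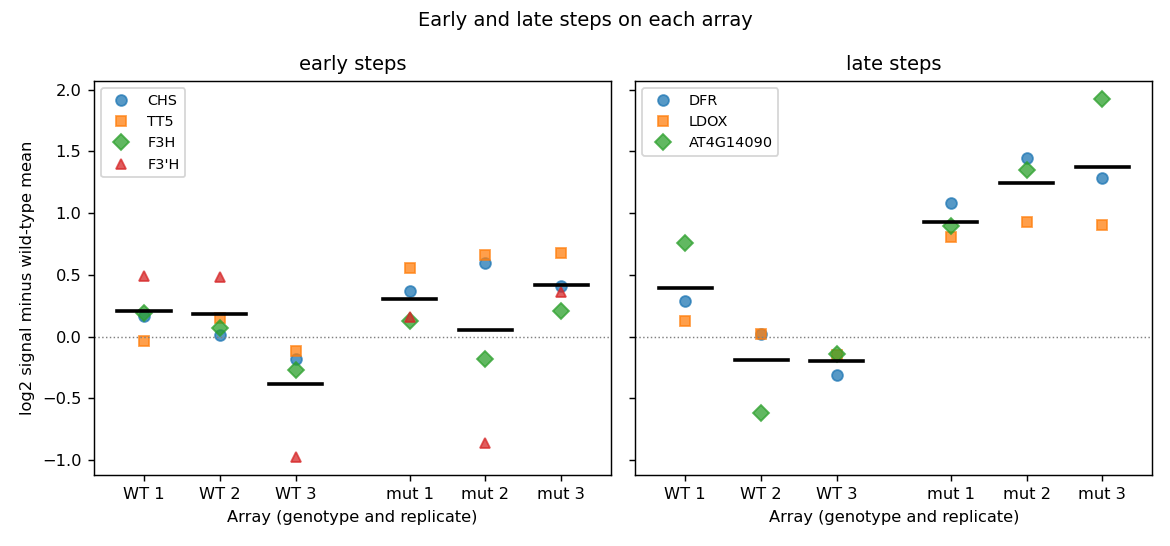
Log2 signal minus the wild-type mean of the same gene, for the 4 early and the 3 late members on each array, with black bars for the mean of the members. The late bars of the mutant arrays stand between 0.93 and 1.37, above the 3 wild-type bars at up to 0.39, while the early bars of the genotypes overlap. That overlap rests on the dim F3'H, and the points of CHS and TT5 do not overlap. The late bars include the dim AT4G14090, which needed its mutant arrays to pass the filter.

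The chosen members of the early and late steps are set side by side here as a description, without a test. The 4 early members had a median log2 change of 0.26, with a range of −0.11 to 0.63, and 2 of them were called higher. The 3 late members had a median of 1.27, with a range of 0.88 to 1.39, and all 3 were called higher, although AT4G14090 needed its mutant arrays to pass the filter. The 2 other tested late genes, UGT78D2 and UGT79B1, had log2 changes of 0.30 and 0.50, within the range of the early members, and were not called. Over all 13848 tested probe sets the median log2 change was −0.02, and 5% of them had a change above 0.56.

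To set the steps side by side on each array, every gene's log2 signal was taken relative to its own wild-type mean and averaged over the early and over the late members. The early mean was 0.21, 0.18 and −0.39 on wild-type replicates 1, 2 and 3 and 0.30, 0.05 and 0.41 on mutant replicates 1, 2 and 3. The early mean of mutant replicate 2 was thus below those of wild-type replicates 1 and 2, and on that array F3H and F3'H were low while CHS was at its highest. This overlap of the early means rested on the dim F3'H, at −0.97 on wild-type replicate 3 and −0.86 on mutant replicate 2. CHS and TT5 by themselves did not overlap between the genotypes. The late mean was 0.39, −0.19 and −0.20 on the wild-type arrays and 0.93, 1.24 and 1.37 on the mutant arrays, with no overlap. It includes the dim AT4G14090, which needed its mutant arrays to pass the filter. That gene was at 0.76 on wild-type replicate 1 and 1.93 on mutant replicate 3. DFR and LDOX by themselves did not overlap between the genotypes. Late minus early, the values were 0.19, −0.37 and 0.19 in the wild type and 0.62, 1.19 and 0.96 in the mutant. The lowest mutant value was above the highest wild-type value.

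The genotypes' means of this quantity differed by 0.92 on the log2 scale, which is 1.90-fold, with an SD over arrays of 0.32 for the wild type and 0.28 for the mutant (n = 3 each). No test was made of it, since the members were chosen with results known and an exact permutation test of 3 against 3 arrays gives no two-sided p under 0.1. The difference was 0.74 to 1.07 when single arrays were left out. It was 0.69 with a filter at the 60th percentile of signal, which removes the dim F3'H and AT4G14090, and 0.58 with an offset of 16 added before log2, which shrinks the changes of dim genes.

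Within a genotype the members also tended to move together. In the wild type, replicate 3 had the lowest signal for 7 of 9 members and replicate 1 the highest for 8 of 9, against 30.9% and 35.3% of all tested probe sets. In the mutant, replicate 1 was the lowest for 6 of 9 and replicate 3 the highest for 6 of 9, against 32.0% and 30.6%. CHS, TT5, DFR, LDOX and PAP1 were all lowest on wild-type replicate 3 and mutant replicate 1, an arrangement found in 9.91% of tested probe sets. F3H and F3'H were lowest on wild-type replicate 3 and mutant replicate 2, as were 8.79% of tested probe sets. These counts are a description of 6 arrays, and the members on an array share its RNA.

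**Figure D3:**
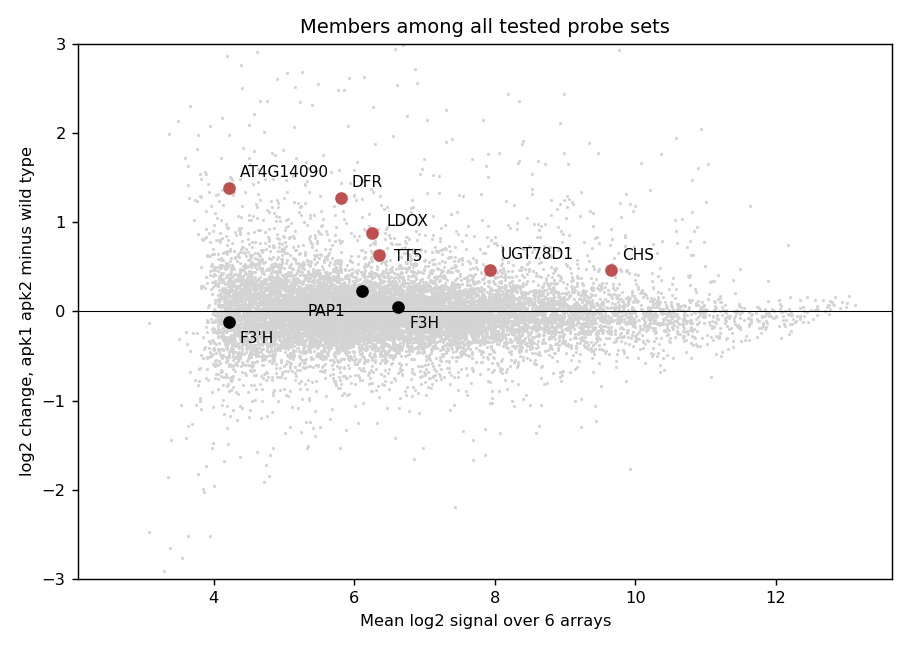
Log2 change (apk1 apk2 minus wild type) against mean log2 signal for 13848 tested probe sets in grey, with the 6 called members in red and the 3 members not called in black. The vertical axis ends at 3 in either direction, which leaves out 19 probe sets. DFR, LDOX and AT4G14090 rank 171, 335 and 139 from the highest change over all tested probe sets, so many grey points lie above them.

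Ranked by log2 change among all tested probe sets, AT4G14090 exceeded 99.0% of them, DFR 98.8%, LDOX 97.6% and TT5 95.8%. UGT78D1 exceeded 93.2%, CHS 93.1%, PAP1 82.7%, F3H 62.6% and F3'H 34.2%. The members spanned the range of brightness, and AT4G14090 and F3'H were the dim ones, with 3.54% and 3.49% of tested probe sets below them in mean log2 signal. Their SEs, 0.38 and 0.43 on the log2 scale, were the largest of the 9, and the SEs of the other 7 were between 0.09 and 0.20.

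Other genes of the pathway were few among the named probe sets. Of 60 further genes on lists of phenylpropanoid entry, early and late steps, flavonol glycosylation and regulators, 9 had a named probe set and 6 were tested, of which limma called 1 higher and 0 lower, against 5.79% and 5.55% of all tested probe sets. At an unadjusted p under 0.05 the counts were 2 and 0, against 10.8% and 12.9%. The one was AT1G06000, known as UGT89C1, which like UGT78D1 attaches rhamnose to flavonols. Its signals were 148.6, 192.6 and 174.0 in the wild type and 212.8, 267.5 and 235.1 in the mutant, with no overlap. It was 1.39-fold higher (95% interval 1.16 to 1.66, limma adjusted p = 0.0196). The call ended when any of 4 arrays was left out: wild-type replicate 1 (log2 change 0.37 in place of 0.48, adjusted p = 0.0818) or 3 (0.49, 0.0581), or mutant replicate 2 (0.39, 0.0759) or 3 (0.48, 0.0549). It also ended with no trend in the variance prior (0.0960).

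CHIL, a chalcone isomerase-like protein that assists CHS, was not called, with signals of 60.4, 53.9 and 34.7 in the wild type and 55.2, 38.0 and 41.0 in the mutant (log2 change −0.13, 95% interval −0.60 to 0.34). Like F3H and F3'H it was lowest on wild-type replicate 3 and mutant replicate 2. UGT78D2, which puts glucose on flavonols and anthocyanidins, had 85.5, 101.1 and 92.5 in the wild type and 129.4, 103.7 and 110.7 in the mutant. Its groups were separate by a small gap, and its log2 change of 0.30 was not called (95% interval 0.03 to 0.56 before adjustment, adjusted p = 0.156). UGT79B1, an anthocyanin glycosyltransferase, had 21.2, 16.6 and 20.8 in the wild type and 18.8, 25.6 and 43.3 in the mutant, where replicate 3 stood apart (log2 change 0.50, 95% interval −0.15 to 1.16, adjusted p = 0.351).

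**Figure D4:**
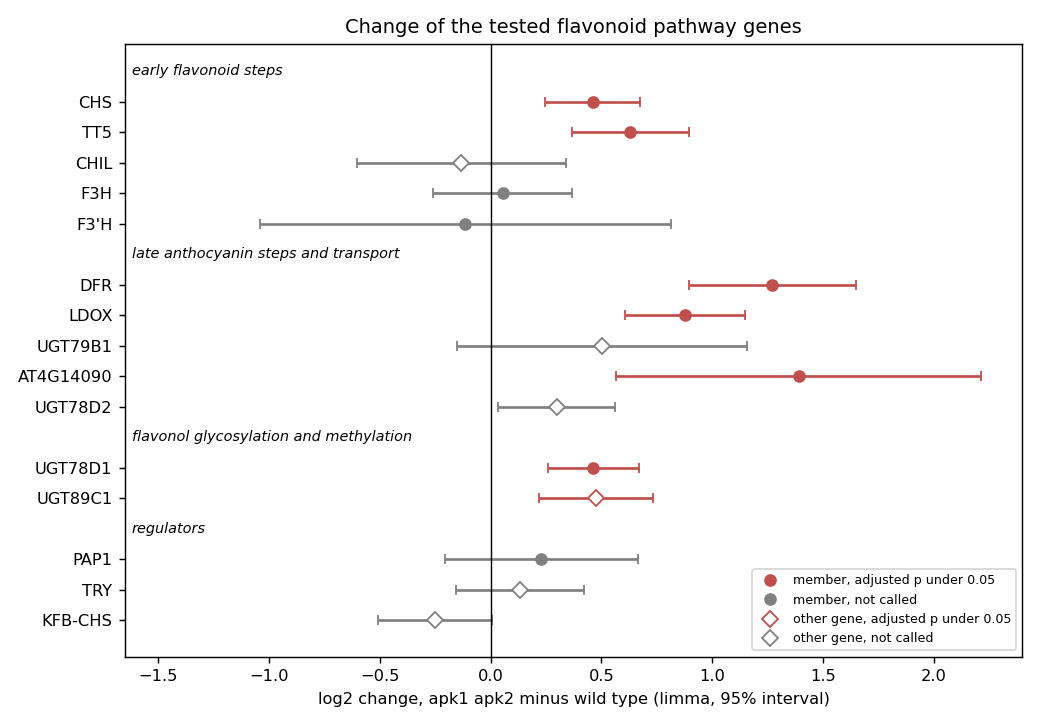
Log2 change with its 95% interval (limma, not adjusted) for the 15 tested genes of the pathway lists, with filled circles for members, open diamonds for other genes, and red for an adjusted p under 0.05. The called genes are CHS, TT5, DFR, LDOX, AT4G14090, UGT78D1 and UGT89C1, while UGT78D2 and UGT79B1 among the late genes and the 3 regulators are grey; UGT89C1 and KFB-CHS are AT1G06000 and AT1G23390.

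Among the regulators, 3 of 28 were tested and 0 were called by limma, also at an unadjusted p under 0.05. TRY, a small MYB-like protein that can compete with activating MYBs, had 59.4, 59.0 and 58.0 in the wild type and 66.4, 69.6 and 58.1 in the mutant (log2 change 0.13, adjusted p = 0.611). AT1G23390, known as KFB-CHS, an F-box protein that marks chalcone synthase for breakdown, had 743.9, 701.1 and 843.8 in the wild type and 785.2, 557.9 and 597.1 in the mutant. Mutant replicate 1 lay within the wild-type range, and the log2 change was −0.25 (95% interval −0.51 to 0.01, adjusted p = 0.226). Without mutant replicate 1 it was −0.40 and called lower (adjusted p = 0.0214). The malonyltransferase gene AT5MAT, at 5.99 to 12.5 over the 6 arrays, and the flavonol arabinosyltransferase gene UGT78D3, at 0.397 to 3.56, lay under the 40th percentile on every array and were not tested.

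Genes with a pattern most like that of DFR were sought among 7463 tested probe sets with 1 gene name, by the root mean square difference of their log2 signals over the 6 arrays after each was centred on its own mean. Of these, scpl31, a serine carboxypeptidase-like gene, was the closest at 0.12, followed by AT3G23570 at 0.15, LUP5, AT4G39955 and AT1G49310, the last 3 at 0.16. The median over all tested probe sets was 0.70. Of these 5, scpl31 was not called (limma adjusted p = 0.0523), and scpl31 and LUP5 passed the filter through their mutant arrays alone, with 0 of 3 wild-type arrays at the 40th percentile. AT1G49310 and AT4G39955, with 1 and 2 of 3 wild-type arrays there, also needed their mutant arrays to pass. AT3G23570 had signals of 422.4, 366.7 and 341.7 in the wild type and 979.3, 954.8 and 922.3 in the mutant and was bright, while the other 4 were dim. Among the members LDOX was nearest to DFR at 0.23, with 0.332% of tested probe sets closer. TT5 followed at 0.37 and CHS at 0.41, and F3'H was the farthest at 0.90. The measure responds to the size of the genotype difference as well as to the order of the arrays.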

How the data were processed

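Each deposited value is the intensity of a probe set on an array, on a linear scale. MAS5 and GCOS are named as software in the submitters' processing notes, with no version. With the highest and lowest 2% of probe sets trimmed, the mean deposited signal was 99.96 on every array, so the authors had scaled the arrays alike, and an overall change in transcript amount would not be seen. Detection calls were not used here.

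After leaving out 64 control probe sets, testing was limited to probe sets with at least 3 of 6 arrays at or above the 40th percentile of that array's signals. Log2 signals were fitted with limma 3.58.1 (R 4.3.3; lmFit, eBayes with a variance trend) on genotype. All p-values are two-sided and adjusted over 13848 probe sets by Benjamini-Hochberg, with a threshold of 0.05. Folds come from the fitted log2 changes, and their 95% intervals are not adjusted. Each sample was a separate pool of rosettes, and 3 arrays per genotype limit the precision. In simulated arrays of both genotypes, again with 13848 probe sets, 24% of 50 changes of 1.5-fold, 78% at 2-fold, 90% at 3-fold and 94% at 4-fold were recovered, with 3 false calls. In all, 146 probe sets were called in the simulation against 1571 in the data. The adjustment was therefore stricter in the simulation, and its recovery rates do not carry over directly to the data.

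The members and lists were chosen with earlier results of these data known. The genes named are the members, the tested genes of the pathway lists and the 5 genes most like DFR in pattern. Of the probe sets, 13513 named 1 gene through the platform annotation, and symbols were updated with a gene table of assembly TAIR10.1; no coordinates are given because no build is named for the values. Alternatives were the replicate number as a block, leaving out each array, quantile normalization, an offset of 16, other signal filters, other variance priors and an adjusted p under 0.01.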

Additional observations from a re-analysis of the deposited data

How the results depend on the processing

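All alternatives were planned, and 6 members were called higher with all arrays against 4 to 6 under the 14 alternatives, with 0 called lower in any of them. The calls of TT5, DFR, LDOX and UGT78D1 held in each. For AT4G14090 the log2 change was 1.08 to 1.77 with single arrays left out, and of these fits only those without replicate 1 of either genotype called it. Without the filter, without a variance trend and at an adjusted p under 0.01 the log2 change was 1.39 and not called. With an offset of 16 it was 0.73 and called. For CHS the log2 change was 0.37 to 0.54 with single arrays left out and 0.46 without a variance trend. CHS was not called without a variance trend or without wild-type replicate 3. The uncalled log2 changes of F3'H (−0.60 to 0.26), F3H (−0.080 to 0.17) and CHIL (−0.37 to 0.029) took either sign when single arrays were left out. The late minus early difference was 0.58 and the late median 0.73 with an offset of 16, and the early median was 0.46 with a filter at the 60th percentile, which leaves out F3'H. The 1571 calls over all probe sets (802 higher, 769 lower) became 880 (507, 373) without a variance trend and 811 (466, 345) at an adjusted p under 0.01, the latter fewer by construction. With 1 array left out they were 1029 to 1585 (526 to 791 and 444 to 794), the fewest without wild-type replicate 3 (1030) and mutant replicate 3 (1029). Why the remaining counts fell was not tested.

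With the replicate number as a block, 1789 probe sets were called, 883 higher and 906 lower, and the same number of members, 6, was called higher. The labels give same-numbered arrays of the genotypes nothing in common but the number. The correlations of their deviations from the genotype means were 0.08, 0.08 and 0.11. For arrays with different numbers they were between −0.08 and −0.003, so each array correlated best with its own number. Whether same-numbered arrays were handled together cannot be told from the labels. With the block the adjusted p was 0.0387 for AT4G14090, 0.00500 for CHS and 6.82e-04 for DFR.

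Precision is lowest for dim genes: F3'H and AT4G14090 have signals near the 40th percentile and SEs of 0.43 and 0.38 on the log2 scale. Changes of 2-fold or less would often be missed there, and the dim scpl31 was not called at 2.19-fold (SE 0.35). Not all dim genes were as imprecise: AT4G39955 and AT1G49310 were called at 2.03-fold and 2.07-fold, with SEs of 0.26 and 0.25.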
